A study of Mus musculus with 18 samples.

Results

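The effect of Ptbp1 loss shared by preMegE and preCFU-E, 2 progenitors of the red cell and platelet lineages, was estimated from 12 of the 18 RNA-seq libraries of the series, chosen by their labels: 3 preMegE KO, 3 preCFU-E KO, 3 preMegE wt and 3 preCFU-E wt. All cells were sorted from bone marrow of C57BL/6 mice. KO mice are labelled Ptbp1 knockout and wt mice Ptbp1 fl/fl, so the controls carry the floxed alleles. The sources used here do not give the deleting Cre, the deleted exon, the age of the mice or any pooling of animals. Both progenitors were sorted as c-kit+ CD150+ cells without lineage markers, Sca-1, CD41 or FcgRII/III, and CD105 separated them: preMegE cells were CD105- and preCFU-E cells CD105+. The other 6 libraries hold HSC, 3 KO and 3 wt, sorted as CD150+ CD48- cells within the Lin- c-kit+ Sca-1+ fraction, and served here as a comparison in other libraries. A common KO against wt effect was fitted over the 12 progenitor libraries with population as an additive term.

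PTBP1, one of the hnRNP proteins, binds pyrimidine-rich stretches of pre-mRNA and, in many genes, represses the inclusion of nearby exons. Its paralog PTBP2 is kept low in most non-neuronal cells because PTBP1 promotes skipping of a short exon of the Ptbp2 transcript, and the skipped form is degraded by nonsense-mediated decay. Red cells and platelets descend from hematopoietic stem cells through shared precursors: preMegE cells give rise to both lineages, and preCFU-E cells are committed to red cells.

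The 12 libraries held between 16412057 and 29226287 estimated reads, of which mitochondrial ribosomal RNA took 12.7% to 28.8%. The erythroid regulators Gata1 and Klf1 were present in all 12 (in counts scaled to library size, CPM: Gata1 50.5 to 94.8, Klf1 38.3 to 192), and the stem cell factor Hlf stood at 37.3 CPM or less, against 526 to 802 CPM in the 6 HSC libraries. The library preCFU-E KO 3 stood apart from its group, with 12.7% mitochondrial ribosomal RNA against 28.8% and 27.0% in preCFU-E KO 1 and 2. preMegE and preCFU-E libraries of the same genotype and replicate number deviated together from their group means, but the labels do not say what a number marks. P-values measure the spread between these samples, and the main fit takes the 12 libraries as independent.

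Ptbp1 itself (chr10:79854427-79864771, GRCm38) was lower in KO libraries of both progenitors. It stood at 175, 166 and 207 CPM in preMegE KO, against 537, 627 and 695 CPM in preMegE wt. In preCFU-E KO it stood at 260, 263 and 270 CPM, against 951, 1086 and 1162 CPM in preCFU-E wt. No KO library reached a wt library of its population, and the common log2 change was -1.89 (SE 0.09, adjusted p = 7.91e-11), which leaves 0.27 of the wt level. The deposited abundance of its protein-coding transcripts, in Salmon's length-corrected unit TPM, was 10.5 ± 5.23 in preMegE KO and 107 ± 31.0 in preMegE wt (SD, n = 3 each). In preCFU-E the same transcripts held 9.95 ± 3.91 TPM in KO and 151 ± 16.8 TPM in wt (SD, n = 3 each). Transcripts annotated as noncoding held 87.7% ± 7.11 of the Ptbp1 TPM in preMegE KO and 77.5% ± 2.38 in preMegE wt, and 89.0% ± 5.36 in preCFU-E KO and 79.0% ± 0.37 in preCFU-E wt (SD, n = 3 each), so this assignment dominated in both genotypes.

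Ptbp2 (chr3:119718742-119784466) was higher in KO libraries of both progenitors. In preMegE it reached 69.2, 79.4 and 75.1 CPM in KO, against 17.1, 17.0 and 13.6 CPM in wt. In preCFU-E it reached 113, 123 and 122 CPM in KO, against 9.76, 9.33 and 6.70 CPM in wt. The groups did not overlap in either population and the common log2 change was 2.98 (SE 0.28, adjusted p = 0.000329). The rise was larger in preCFU-E (log2 3.78) than in preMegE (log2 2.23), and Ptbp2 was the 1 gene of 17159 (0.00583%) called for a difference of the KO effect between preCFU-E and preMegE (log2 difference 1.56, SE 0.19, adjusted p = 0.0021). Ptbp3, the third paralog, averaged 961 ± 89.4 CPM in preMegE KO and 988 ± 68.7 CPM in preMegE wt (SD, n = 3 each), and its common log2 change was -0.03 (adjusted p = 0.933).

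The 34-nt exon of Ptbp2 that PTBP1 represses is one of several short cassette exons whose inclusion differed between genotypes, and their sequences show what was gained or lost from each message. Each is printed from the GENCODE M21 transcript that carries it, 5′ to 3′ on the strand of the gene, with the exon in capitals and 15 bases of the neighbouring exons in lower case. Both Tpm1 exons are shown because they replaced each other, the Ptbp2 exon because it belongs to the paralog, and the Mars, Psap, Pdlim7 and Anxa7 exons because wt libraries held little of them. Positions are on GRCm38.
Tpm1 exon lower in KO, chr9:67032466-67032541, minus strand: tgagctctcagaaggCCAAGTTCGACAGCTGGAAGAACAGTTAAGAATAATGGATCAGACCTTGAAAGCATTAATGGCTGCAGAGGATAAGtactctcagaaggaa
Tpm1 exon higher in KO, chr9:67031951-67032026, minus strand: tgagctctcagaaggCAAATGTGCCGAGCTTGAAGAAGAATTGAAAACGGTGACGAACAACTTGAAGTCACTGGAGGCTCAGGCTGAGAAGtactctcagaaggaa
Ptbp2 exon higher in KO, chr3:119724612-119724645, minus strand: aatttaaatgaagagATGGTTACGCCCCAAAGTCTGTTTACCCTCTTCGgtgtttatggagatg
Psap exon higher in KO, chr10:60297537-60297545, plus strand: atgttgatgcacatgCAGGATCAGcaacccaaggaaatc
Mars exon higher in KO, chr10:127296717-127296740, minus strand: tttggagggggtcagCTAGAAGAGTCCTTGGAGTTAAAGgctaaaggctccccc
Pdlim7 exon higher in KO, chr13:55507864-55507880, minus strand: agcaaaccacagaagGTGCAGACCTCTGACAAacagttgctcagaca
Anxa7 exon higher in KO, chr14:20467458-20467523, minus strand: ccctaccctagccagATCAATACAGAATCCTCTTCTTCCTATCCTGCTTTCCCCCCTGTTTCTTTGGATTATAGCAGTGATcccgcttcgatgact

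Inclusion of an exon was taken as the share of TPM on transcripts that carry it, among transcripts that carry or skip it. Of 6200 cassette exons tested, 167 (2.69%) passed an adjusted p of 0.05 with a change of at least 10 percentage points: 115 (1.85%) were higher and 52 were lower in KO. They lay in 111 genes and, because exons with the same transcripts on either side share their value, they represent 155 distinct measurements. The called exons were short, with a median of 84 nt against 104 nt for all tested exons, and 71.9% of them held a multiple of 3 bases, against 44.4% of those tested. In 154 of the 167 the KO and wt libraries did not overlap within either population, which the call favours, against 320 of all tested exons (5.16%). Salmon assigns each read to transcripts by a model, so these are estimates of inclusion and not junction counts.

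Tpm1, which encodes the actin-binding tropomyosin 1, had the largest inclusion change of the called exons. Its first 76-nt exon was included at 11.6%, 10.9% and 7.61% in preMegE KO, against 78.1%, 77.7% and 78.8% in preMegE wt. In preCFU-E it was included at 6.15%, 3.72% and 4.14% in KO, against 85.8%, 83.7% and 85.9% in wt. The other 76-nt exon moved the opposite way, to 81.6% ± 7.21 in preMegE KO and 16.6% ± 2.91 in preMegE wt, and to 93.6% ± 0.32 in preCFU-E KO and 12.7% ± 1.56 in preCFU-E wt (SD, n = 3 each). The adjusted p was 4.34e-06 for the first exon and 1.98e-05 for the other (limma on the logit scale).

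The 34-nt Ptbp2 exon was included at 82.8%, 97.1% and 93.6% in preMegE KO, against 68.1%, 73.3% and 59.5% in preMegE wt. In preCFU-E it was included at 93.3%, 100% and 98% in KO, against 75.0%, 68.5% and 54.9% in wt. Every KO library lay above every wt library (adjusted p = 0.0105). Ptbp1 carries a 34-nt exon of its own, whose skipping PTBP1 promotes, and it was included at 98.6% to 100% in the 6 KO libraries, against 74.0% to 78.3% in the 6 wt libraries (adjusted p = 3.51e-06). That measure concerns the Ptbp1 RNA that remained in KO cells.

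Very short exons of Mars, Psap and Pdlim7 were higher in KO cells of both progenitors. The 24-nt exon of Mars, the methionyl-tRNA synthetase, was included at 56.7%, 54.5% and 34.2% in preMegE KO, against 0.822%, 0.756% and 0.475% in preMegE wt. In preCFU-E it was included at 54.4%, 56.8% and 64.1% in KO, against 5.45%, 4.26% and 5.43% in wt, so that no libraries overlapped (adjusted p = 7.95e-06). The 9-nt exon of Psap, the precursor of the saposins of lysosomes, averaged 50.4% ± 3.46 in preMegE KO against 4.22% ± 6.47 in preMegE wt, and 51.9% ± 7.0 in preCFU-E KO against 2.32% ± 2.74 in preCFU-E wt (SD, n = 3 each; adjusted p = 0.00093). The 17-nt exon of Pdlim7, which encodes an actin-associated LIM protein, averaged 54.8% ± 19.1 in preMegE KO against 1.79% ± 3.11 in preMegE wt, and 64.5% ± 9.53 in preCFU-E KO against 5.11% ± 5.88 in preCFU-E wt (SD, n = 3 each; adjusted p = 0.00113).

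Exons of Anxa7, Reep6 and Exoc7, which act at membranes and vesicles, were higher in KO as well. The 66-nt exon of Anxa7, an annexin, was included at 52.5%, 24.5% and 21.5% in preMegE KO and at 4.74% or less in preMegE wt. In preCFU-E it was included at 69.4%, 62.4% and 63.7% in KO and at 1.85% or less in wt (adjusted p = 0.000313). An 81-nt exon of Reep6, an endoplasmic reticulum membrane protein, averaged 45.4% ± 9.61 in preMegE KO against 2.26% ± 0.58 in wt, and 86.9% ± 5.89 in preCFU-E KO against 3.06% ± 1.66 in wt (SD, n = 3 each; adjusted p = 0.000134). Exoc7, a subunit of the exocyst that tethers vesicles, included a 93-nt exon at 44.8% to 76.5% in the 6 KO libraries, against 3.06% to 8.15% in the 6 wt libraries (adjusted p = 1.98e-05). The difference of inclusion effects between the populations was not tested.

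Of the remaining exons with the largest changes, a 140-nt exon of Lrrc61 was higher in KO, at 56.7% to 100% in the 6 KO libraries against 21.5% to 46.2% in the 6 wt libraries (adjusted p = 0.0238). An 84-nt exon of Mia2, whose product acts in export from the endoplasmic reticulum, was lower in KO but uneven among libraries. It was included at 55.1%, 65.5% and 42.1% in preMegE KO, against 96.4%, 92.2% and 95.0% in preMegE wt, and at 0%, 63.2% and 0% in preCFU-E KO, against 93.1%, 87.6% and 97.4% in preCFU-E wt (adjusted p = 0.0337). Without single libraries, the number of called exons ran from 134 to 178.

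**Figure D1:**
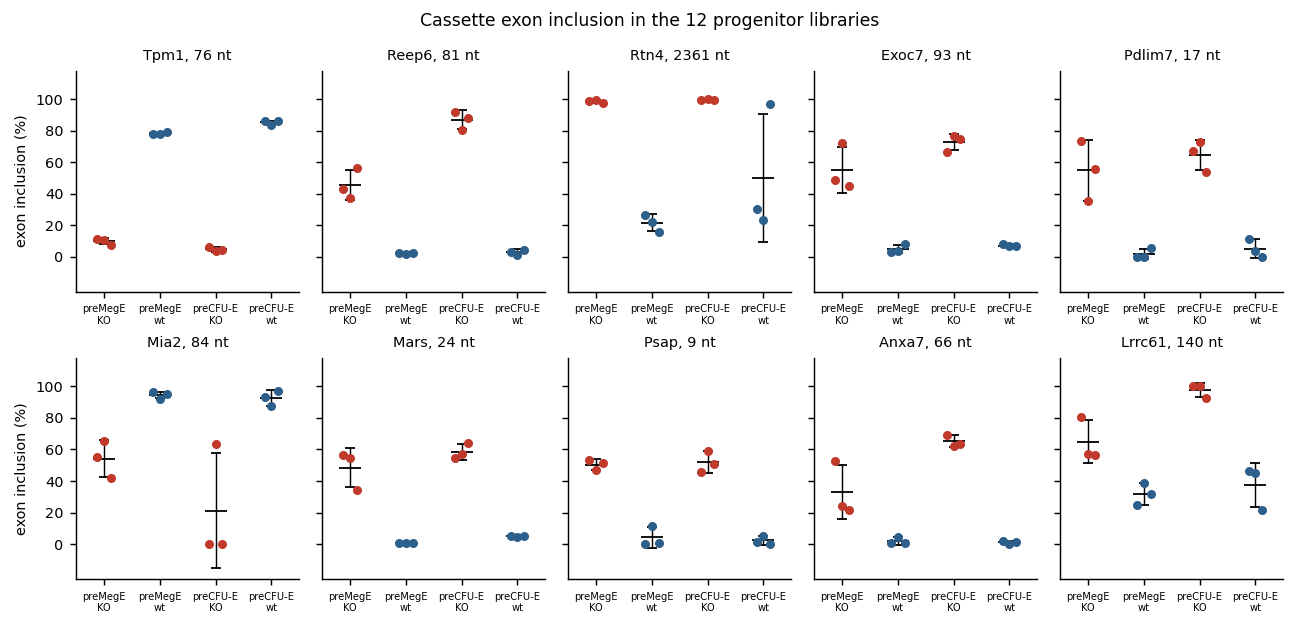
Inclusion (%) of the 10 exons with the largest changes, 1 per gene, in the 12 progenitor libraries; red points are KO and blue points wt, and bars give the mean ± SD of 3 libraries. The Tpm1 exon lies at 11.6% or less in KO and at 77.7% or more in wt, and the Rtn4 exon shows 1 preCFU-E wt library at 96.8%.

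Rtn4, which encodes the reticulon Nogo, joins an exon change to a count change. Its read count was higher in KO, at 234 ± 24.3 CPM in preMegE KO against 132 ± 6.41 CPM in wt, and at 275 ± 12.9 CPM in preCFU-E KO against 135 ± 16.4 CPM in wt (SD, n = 3 each; log2 0.93, adjusted p = 1.13e-06). A 2361-nt exon (chr11:29706410-29708770), which marks the long Nogo-A form, was included at 97.5% to 99.8% in the 6 KO libraries. In wt it was included at 26.4%, 22.3% and 15.8% in preMegE and at 30.1%, 23.1% and 96.8% in preCFU-E (adjusted p = 0.00287). The mean effective length of the expressed Rtn4 transcripts was 3960 to 4114 bases in the KO libraries and 1952 to 2323 bases in the wt libraries, preCFU-E wt 3 included. With counts scaled for that length the log2 change was 0.03 (adjusted p = 0.962), and the abundance per length was 47.1 to 67.4 TPM in KO and 47.0 to 78.6 TPM in wt, so the groups overlapped.

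At the level of gene counts, 234 of 17159 genes (1.36%) were called for the common effect: 108 (0.629%) were higher and 126 (0.734%) lower in KO, against a median log2 change of 0.01 over all genes. Of these, 40 rises and 26 falls passed 2-fold. KO and wt libraries did not overlap in either population for 78 of the higher and 109 of the lower genes, which the call favours, and for 521 of all genes tested (3.04%). Summing the same-numbered preMegE and preCFU-E libraries into 1 sample called 116 genes with edgeR, 100 of them among the 234. Treating the pair as a random effect was done in limma voom. It called 536 genes, 224 of them among the 234, against 787 in limma voom without the pair. All 234 kept their sign in both fits with pairs, which the call favours. Without replicate 2 of all 4 groups, 42 genes were called, an alternative chosen after seeing the data, and 46 of the higher and 54 of the lower genes were called in every fit that left out 1 library. With 2 other tools more genes were called: 216 higher and 292 lower with DESeq2, and 329 higher and 458 lower with limma voom. Calls within gene lists are to be read beside these numbers over all 17159 genes.

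Within each population in the fit with group means, 64 genes (0.373%) were called in preMegE, 24 higher (0.14%) and 40 lower (0.233%). In preCFU-E 78 (0.455%) were called, 41 higher (0.239%) and 37 lower (0.216%). Of the 234 common genes, 16 higher and 16 lower ones were called within both, and 69 of the higher and 75 of the lower genes within neither. In a fit of the 6 libraries of each population alone, 36 genes were called in preMegE, 34 of them among the 234, and 252 in preCFU-E, 127 of them among the 234.

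**Figure D2:**
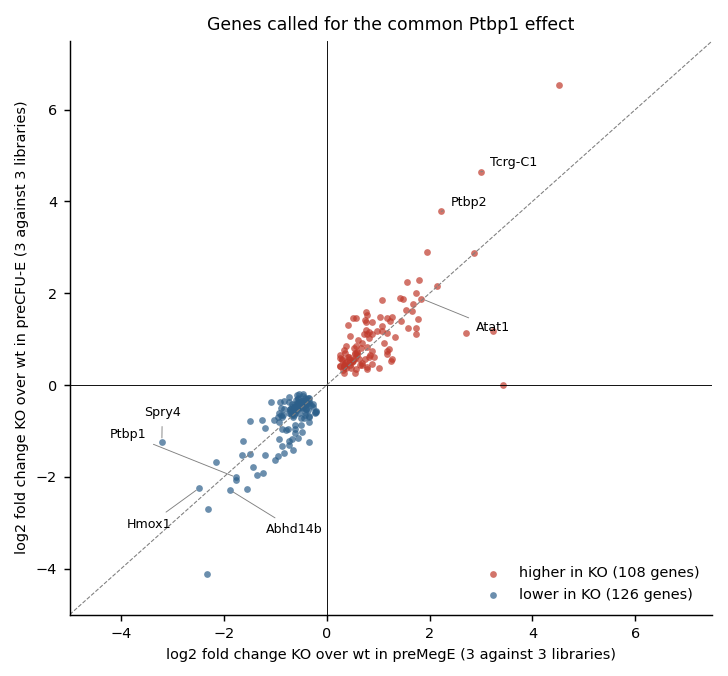
Log2 fold change KO over wt in preMegE (x axis) and preCFU-E (y axis), each from 3 against 3 libraries, for the 234 genes called for the common effect; the dashed line marks equal change. The genes lie at the upper right and lower left, which the common call favours, and Ptbp2 lies above the line at 2.23 in preMegE and 3.78 in preCFU-E.

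Atat1 and Scin, which act on microtubules and actin, were 2 of the 15 named rises. Atat1, the enzyme that acetylates alpha-tubulin, stood at 21.8, 16.5 and 19.1 CPM in preMegE KO, against 7.36, 4.03 and 4.62 CPM in preMegE wt. In preCFU-E it stood at 9.91, 7.14 and 11.1 CPM in KO, against 3.07, 2.00 and 2.52 CPM in wt. The groups did not overlap and the common log2 change was 1.86 (SE 0.17, adjusted p = 1.13e-06), with nearly the same change in both populations (1.84 and 1.88). The mean effective length of the expressed Atat1 transcripts was 1216 to 1442 bases in KO and 712 to 1000 bases in wt libraries. With counts scaled for that length the edgeR log2 change was 1.28 (adjusted p = 0.00589). Scin, an actin-severing protein, stood at 103, 123 and 128 CPM in preMegE KO against 43.8, 44.6 and 33.3 CPM in wt, and at 52.4, 30.4 and 23.9 CPM in preCFU-E KO against 13.1, 11 and 9.77 CPM in wt (log2 1.59, adjusted p = 2.57e-05). The fixed list of tropomyosins, actinins and tubulin modifiers, of which Scin is no member, had 23 tested members. Of these 3 were higher (Atat1, Actn1, Tuba1a) and 2 lower, Flna among them, where 0.629% and 0.734% of all genes were. The list had a median log2 of -0.11 and 14 members negative.

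Within that list, members that build or bundle actin filaments moved in both directions. Actn1, an actin cross-linker, rose (log2 0.98, adjusted p = 0.00641), while the filamin Flna, another cross-linker, fell to 265, 310 and 312 CPM in preMegE KO, against 383, 419 and 438 CPM in preMegE wt. In preCFU-E Flna stood at 178, 181 and 150 CPM in KO, against 306, 348 and 373 CPM in wt (common log2 -0.75, adjusted p = 0.000181). Actn1 lost its call with counts scaled for transcript length (adjusted p = 0.132), and Tuba1a (log2 0.59, adjusted p = 0.0134) with pairs summed (0.219).

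Other genes that rose without overlap of the groups cover signaling and lipid enzymes. Tmem86b, a lysoplasmalogenase, stood at 15.8, 16.3 and 21.6 CPM in preMegE KO against 7.87, 6.61 and 8.62 CPM in wt, and at 12.8, 14.1 and 15.3 CPM in preCFU-E KO against 5.36, 5.51 and 5.22 CPM in wt (log2 1.30, adjusted p = 1.22e-06). Every KO library lay above every wt library of either progenitor. Map3k13, a kinase of the MAP kinase cascades (log2 1.42), Rnf144b, a ubiquitin ligase (log2 1.31), Cx3cr1, the fractalkine receptor (log2 1.2), and the noncoding RNA Dubr (log2 1.06) rose as well, as did the loci Gm29170, 2510009E07Rik and 2310058D17Rik (log2 1.49, 1.18 and 1.12). Dubr lost its call with pairs summed (adjusted p = 0.0906).

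Some rises lost their call with length-scaled counts. Inpp4b, a lipid phosphatase of phosphoinositide signaling, stood at 33.7 ± 5.54 CPM in preMegE KO against 12.5 ± 1.18 CPM in wt, and at 4.51 ± 0.73 CPM in preCFU-E KO against 1.25 ± 0.45 CPM in wt (SD, n = 3 each; log2 1.60, adjusted p = 2.51e-06). With length-scaled counts its log2 change was 1.59 and the adjusted p 0.131. Ppp1r12b, a subunit of myosin phosphatase (log2 1.26, adjusted p = 3.04e-07), had a length-scaled log2 change of 0.62 (adjusted p = 0.712), and Mdga1, a cell-surface adhesion protein (log2 1.05), one of 0.75 (adjusted p = 0.146).

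Tcrg-C1, a constant segment of the T cell receptor gamma locus, had the largest rise by the naming rule (log2 3.87, SE 0.45, adjusted p = 0.000244). It stood at 3.75, 2.38 and 3.81 CPM in preMegE KO against 0.437, 0.496 and 0.291 CPM in wt. In preCFU-E it stood at 24.3, 5.27 and 9.20 CPM in KO against 0.566, 0.711 and 0.184 CPM in wt, so the groups did not overlap but preCFU-E KO 1 stood far above the other KO libraries. Of 13 T and NK cell markers 4 were tested and edgeR called none (0 at an unadjusted p under 0.05; 0 with DESeq2 and voom), and their summed level was 206 to 232 CPM in preMegE KO against 185 to 245 CPM in wt, and 20.5 to 39.2 CPM in preCFU-E KO against 20.3 to 22.4 CPM in wt, nearly all of it Nkg7. Cd3d, a subunit of the T cell receptor complex, stood at 2.08 CPM or less in every progenitor library.

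Abhd14b, a hydrolase, had the largest fall of the genes picked by the naming rule. It stood at 3.59, 2.79 and 4.79 CPM in preMegE KO against 13.2, 13.7 and 14.7 CPM in wt, and at 1.86, 2.03 and 2.31 CPM in preCFU-E KO against 10.4, 11.7 and 8.29 CPM in wt (log2 -2.07, SE 0.16, adjusted p = 1.46e-07). Dnmt3b, a de novo DNA methyltransferase, stood at 29.2, 23.5 and 30.9 CPM in preMegE KO against 62.3, 86.4 and 87.8 CPM in wt. In preCFU-E it stood at 29.7, 26.6 and 22.4 CPM in KO against 65.2, 82.7 and 73.3 CPM in wt, and the change was alike in both populations (log2 -1.50 and -1.49, common adjusted p = 4.27e-08). Dnmt3b was the 1 called gene among 13 tested enzymes of DNA methylation, whose median log2 was -0.11.

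Necap2, a protein of clathrin-coated vesicles, fell to 17.2, 12.3 and 17.4 CPM in preMegE KO, against 45.4, 50.2 and 50.5 CPM in wt. In preCFU-E it stood at 50.1, 45.7 and 49.1 CPM in KO against 105, 119 and 111 CPM in wt (common log2 -1.41, adjusted p = 4.27e-08). Pgm2, a sugar phosphate mutase, stood at 30.5, 33.4 and 34.9 CPM in preMegE KO against 61.3, 63.4 and 74.4 CPM in wt, and at 36.4, 35.0 and 28.4 CPM in preCFU-E KO against 86.5, 105 and 119 CPM in wt (log2 -1.32, adjusted p = 1.22e-06). Neither gene's groups overlapped. Of 16 tested genes of glycogen and sugar phosphate metabolism, Pgm2 was the 1 that fell and Phkg2, a subunit of phosphorylase kinase, the 1 that rose (log2 0.52, adjusted p = 0.0325); Phkg2 lost its call with pairs summed (adjusted p = 0.151) and kept it in 3 of the 12 fits without 1 library, those without preMegE KO 1, preMegE KO 2 or preCFU-E wt 2 (up to 0.0874 in the others).

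**Figure D3:**
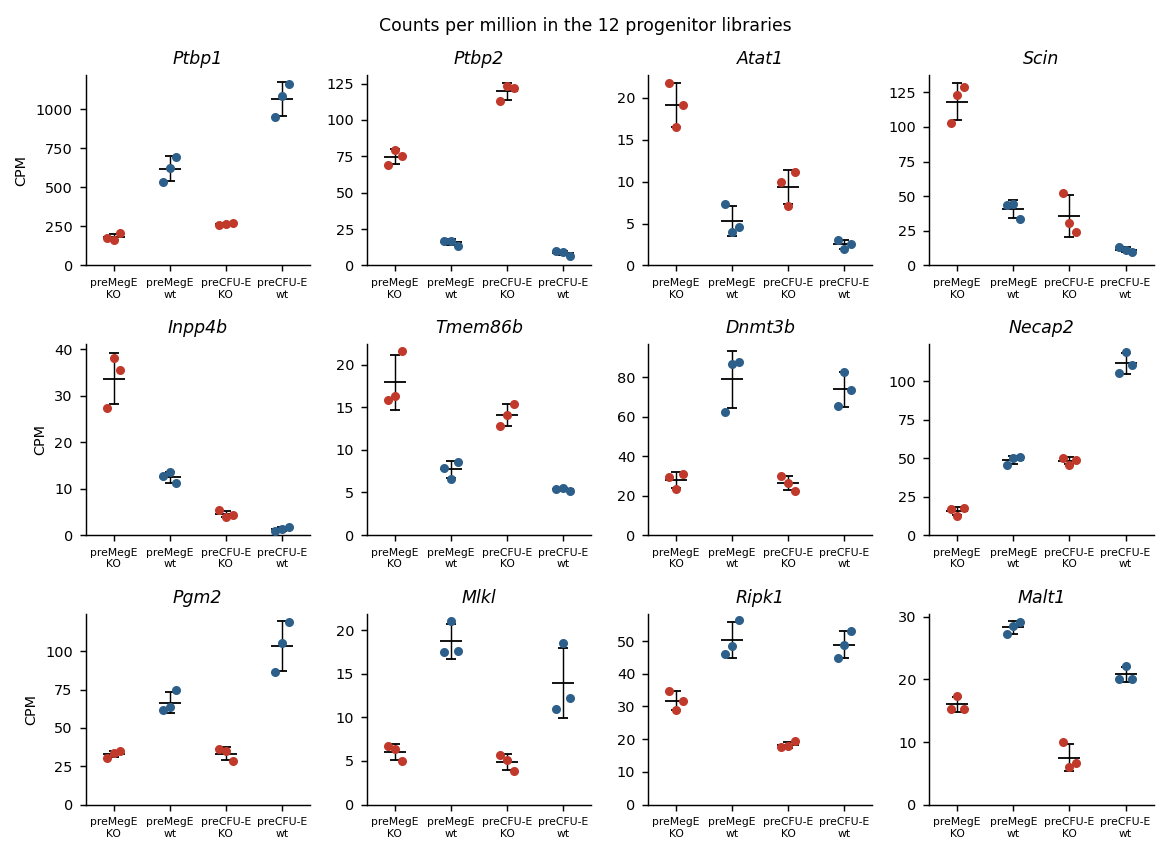
Library-scaled read counts (CPM) of 12 genes in the 12 progenitor libraries, with preMegE KO, preMegE wt, preCFU-E KO and preCFU-E wt from left to right; bars give the mean ± SD of 3 libraries. In each panel KO and wt libraries do not overlap within a population, and Ptbp2 reaches 113 to 123 CPM in preCFU-E KO against 6.70 to 9.76 CPM in preCFU-E wt.

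Genes of necroptosis and death receptor signaling included 3 of 15 tested members called lower, where 0.734% of all genes were, and none called higher. The list median was -0.01, with 7 members positive and 8 negative. Mlkl, the pseudokinase that carries out necroptosis, stood at 6.68, 6.39 and 4.99 CPM in preMegE KO against 17.5, 21.1 and 17.6 CPM in wt, and at 5.63, 5.11 and 3.90 CPM in preCFU-E KO against 11, 18.5 and 12.3 CPM in wt (log2 -1.58, SE 0.15, adjusted p = 1.22e-06). Ripk1, the kinase upstream of it, stood at 34.7, 28.9 and 31.7 CPM in preMegE KO against 46.0, 48.6 and 56.4 CPM in wt, and at 17.5, 17.9 and 19.4 CPM in preCFU-E KO against 44.7, 48.9 and 53.1 CPM in wt (log2 -1.03, adjusted p = 3.84e-05). KO and wt libraries of both genes were apart in each progenitor. Casp8, the protease that cleaves RIPK1, fell less (log2 -0.43, adjusted p = 0.016) and was not called without preMegE wt 2 (0.0618) or without preCFU-E KO 2 (0.0566), nor with length-scaled counts (0.0761). Malt1, a paracaspase of NF-kB signaling that is not on the list, fell by 1.14 on the log2 scale (adjusted p = 3.84e-05).

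The remaining falls that the naming rule picked, which takes 15 genes of sufficient level without overlap and so not all 26 falls past 2-fold, had varied roles. They were Spry4, an inhibitor of receptor tyrosine kinase signaling (log2 -1.79), Unc45a, a myosin chaperone (-1.36), Uvssa, a factor of transcription-coupled repair (-1.24), Ctse, the protease cathepsin E (-1.13), Acad10, of the acyl-CoA dehydrogenase family (-1.07), Dpp4, a surface dipeptidase (-1.04), and Lrrcc1, a centrosomal protein (-1.01). Spry4 was near the detection limit in preMegE, at 0, 0.29 and 0.236 CPM in KO against 1.71, 1.12 and 2.21 CPM in wt. Ctse (adjusted p = 0.0273) was not called with pairs summed (0.136), nor without any one of preMegE wt 1, preCFU-E wt 2, preMegE KO 1, 2 and 3, and preCFU-E KO 1 and 2 (adjusted p up to 0.0808). Acad10 and Dpp4 were not called with length-scaled counts (adjusted p = 0.694 and 0.33).

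Genes already reported as PTBP1-regulated, a list assembled partly with results of these data known, had 4 higher (Rtn4, Atat1, Ptbp2, Actn1) and 3 lower, Pgm2 and Flna among them, of 34 tested members, and a median log2 of -0.06. This is therefore no independent evidence of direction. Among other hnRNP and SR splicing factors, 2 of 38 were lower, Hnrnpdl (log2 -0.45, adjusted p = 0.0187) and Hnrnpd (log2 -0.40, adjusted p = 0.035). With pairs summed their adjusted p was 0.199 and 0.225, in that order. Hnrnpdl was lost without preMegE wt 1, preMegE wt 2 or preCFU-E wt 2 (up to 0.0613), and Hnrnpd without any one of 8 libraries (all but preMegE wt 3, preMegE KO 1, preCFU-E wt 1 and preCFU-E KO 2; up to 0.101). edgeR called none of 35 core spliceosome genes (1 at an unadjusted p under 0.05) and none of 16 nonsense-mediated decay genes (2 at that level), while DESeq2 and voom each called 1 and 0 of them, in that order.

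Ribosome-related genes, which the title of the series names, gave no call by gene count in the common effect. Exon inclusion did change in the ribosomal protein gene Rps24. Its 20-nt exon averaged 88.8% in preMegE KO against 57.0% in wt, and 25.5% in preCFU-E KO against 7.28% in wt. KO and wt libraries did not overlap in either population (limma on the logit scale, adjusted p = 0.000134). Rps24 was also called for transcript usage (edgeR, adjusted p = 5.0e-09). Large-subunit ribosomal protein genes had a median log2 of 0.09 with 45 of 48 positive, and small-subunit genes 0.11 with 32 of 34 positive in edgeR, with 7 in each at an unadjusted p under 0.05. DESeq2 called 0 of the large-subunit genes and 1 of the small-subunit genes, Rps27l, and voom called 2 and 1, all higher in KO. Ribosome biogenesis factors had a median of -0.08 with 44 of 60 negative, and 19 cytosolic tRNA synthetases one of -0.11 with 17 negative; 5 and 2 of them had an unadjusted p under 0.05, and DESeq2 called 0 and 1, voom 1 and 1, all lower. In both lists the median was negative in preMegE (-0.14 and -0.25) and slightly positive in preCFU-E (0.03 and 0.02). Ribosomal protein genes, like tubulins and histones, share reads with near-identical copies, so their values are uncertain, and without stated strand the reads of overlapping antisense genes cannot be told apart. Mitochondrially encoded genes had a median of 0.58 with no call (1 at an unadjusted p under 0.05; none with DESeq2 or voom), a list that includes both mitochondrial ribosomal RNAs. Without these, the 13 messages summed to 6702 to 12693 CPM in preMegE KO against 4228 to 11557 CPM in wt, and to 5834 to 22301 CPM in preCFU-E KO against 6171 to 9054 CPM in wt, so the groups overlapped in both populations.

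Lineage genes showed single calls. Of 21 tested megakaryocyte genes 2 were lower, the platelet glycoproteins Gp1ba (log2 -0.58, adjusted p = 0.00965) and Gp5 (log2 -0.46, adjusted p = 0.04), and DESeq2 called 3 and voom 6, all lower. Of all 17159 genes, edgeR called 126, DESeq2 292 and voom 458 lower. The list median was -0.38 for the common effect, -0.36 within preMegE and 0 within preCFU-E. Gp5 was not called with pairs summed (adjusted p = 0.105) and was called without 1 library only for preMegE KO 1, preCFU-E wt 1 and preCFU-E KO 1 (up to 0.1 in the others). edgeR called none of 26 erythroid transcription factor genes (3 at an unadjusted p under 0.05) and none of 26 stem cell genes (5 at that level). DESeq2 called 1 of the erythroid genes and voom 3, all lower. Of the stem cell genes DESeq2 called 3 and voom 3, all higher. Of all 17159 genes DESeq2 called 216 and voom 329 higher. The 4 globin genes tested had a median log2 of -0.67, -1.19 within preMegE and -0.24 within preCFU-E, and none was called by edgeR (2 at an unadjusted p under 0.05), DESeq2 or voom. Of the red cell membrane skeleton list edgeR called 1 of 22 (DESeq2 4 and voom 2, all lower), the water channel Aqp1 (log2 -0.36, adjusted p = 0.0442), which was lost with pairs summed (0.178), with another normalization (RLE, 0.059) and in 9 of 12 fits without 1 library (all but those without preMegE KO 1, preCFU-E wt 1 and preCFU-E KO 3; up to 0.119).

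Among heme and iron genes, Hmox1, the enzyme that breaks down heme, fell by 2.38 on the log2 scale (adjusted p = 6.45e-05). It stood at 0.506, 0.929 and 0.51 CPM in preMegE KO against 4.77, 3.44 and 2.58 CPM in wt, and at 0.31, 0.417 and 0.272 CPM in preCFU-E KO against 1.47, 2.13 and 1.17 CPM in wt, without overlap. Slc40a1, the iron exporter ferroportin, fell by 0.42 (adjusted p = 0.0212) but not with pairs summed (adjusted p = 0.27), nor without preMegE wt 1, preCFU-E wt 2 or preCFU-E KO 2 (up to 0.0664). Both also mark macrophages: of 13 tested macrophage and dendritic cell markers 12 had a negative log2 change (median -0.57). These were the 2 called, where 0.734% of all genes were called lower. The summed level of those markers was 172 to 275 CPM in preMegE KO against 316 to 379 CPM in wt, and 150 to 186 CPM in preCFU-E KO against 177 to 212 CPM in wt, most of it Apoe in preMegE. Single macrophage markers differed in level. Cd163 stood at 35.49 to 38.08 CPM in preMegE KO against 32.51 to 41.32 CPM in wt. In preCFU-E it stood at 11.21 to 16.04 CPM in KO against 13.27 to 15.64 CPM in wt, so the groups overlapped in both populations. Siglec1, another macrophage marker, was at 0.81 CPM or less in every progenitor library. The part of such cells in the Hmox1 and Slc40a1 results was not tested, and in bulk RNA fewer cells of a type and less RNA per cell cannot be told apart.

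Cell cycle lists leaned to lower medians in preMegE, with few members called and with summed levels that overlapped between KO and wt. S phase genes had a median log2 of -0.13 with 40 of 48 negative (-0.33 within preMegE, 0.05 within preCFU-E), and G2 and M phase genes one of -0.13 with 44 of 54 negative (-0.24 within preMegE, 0.01 within preCFU-E). In preMegE the S phase genes summed to 3004.5 to 3488.5 CPM in KO against 3209 to 4539.8 CPM in wt. The G2 and M phase genes summed to 4685, 4255 and 3203 CPM in preMegE KO, against 4304, 4706 and 4823 CPM in wt. Members of such a list vary together, so their counts are not independent. Tyms, the thymidylate synthase, fell to 47.0, 30.4 and 26.5 CPM in preMegE KO, against 55.6, 61.2 and 80.6 CPM in wt. In preCFU-E it stood at 69.2, 76.0 and 73.5 CPM in KO, against 111, 130 and 141 CPM in wt (common log2 -0.86, adjusted p = 0.000573), and it was the 1 S phase gene that edgeR called (DESeq2 1, voom 2). Ccnd1, which encodes cyclin D1, fell by 0.66 (adjusted p = 0.0226) but was lost with pairs summed (0.0517) and without preMegE wt 2, preCFU-E wt 2, preCFU-E KO 1 or preCFU-E KO 3 (up to 0.0659). edgeR called none of 54 G2 and M phase genes (7 at an unadjusted p under 0.05), DESeq2 1 and voom 2. Of 26 tested p53 targets 19 had a positive log2 change (median 0.13) and 2 were called higher, where 0.629% of all genes were. DESeq2 called 2 and voom 4 of them, of which 3 were higher with voom. The 2 that edgeR called were Trp53inp1 (log2 0.67, adjusted p = 0.00575) and Phlda3 (log2 1.15, adjusted p = 0.0236). Phlda3 was lost with pairs summed (0.0824). Phlda3 was also lost without any one of preMegE wt 1 and 2, preMegE KO 3, preCFU-E wt 2 and 3, and preCFU-E KO 2 and 3 (up to 0.0833). Socs2, an inhibitor of cytokine signaling, was the 1 of 17 erythropoietin receptor and JAK-STAT5 genes that edgeR called, against 3 with DESeq2 and 3 with voom (log2 1.42, adjusted p = 0.0264; 0.283 with pairs summed), and kept its call only without preMegE wt 3, preMegE KO 1 or preMegE KO 2 among the fits that left out 1 library (up to 0.0948 in the others). Lss, the lanosterol synthase, was the 1 of 24 cholesterol synthesis genes that edgeR called (log2 -0.51, adjusted p = 0.00536). DESeq2 called 4 and voom 5 of them, all lower, where they called 292 and 458 of all 17159 genes lower. Of the 24 genes 18 were negative.

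**Figure D4:**
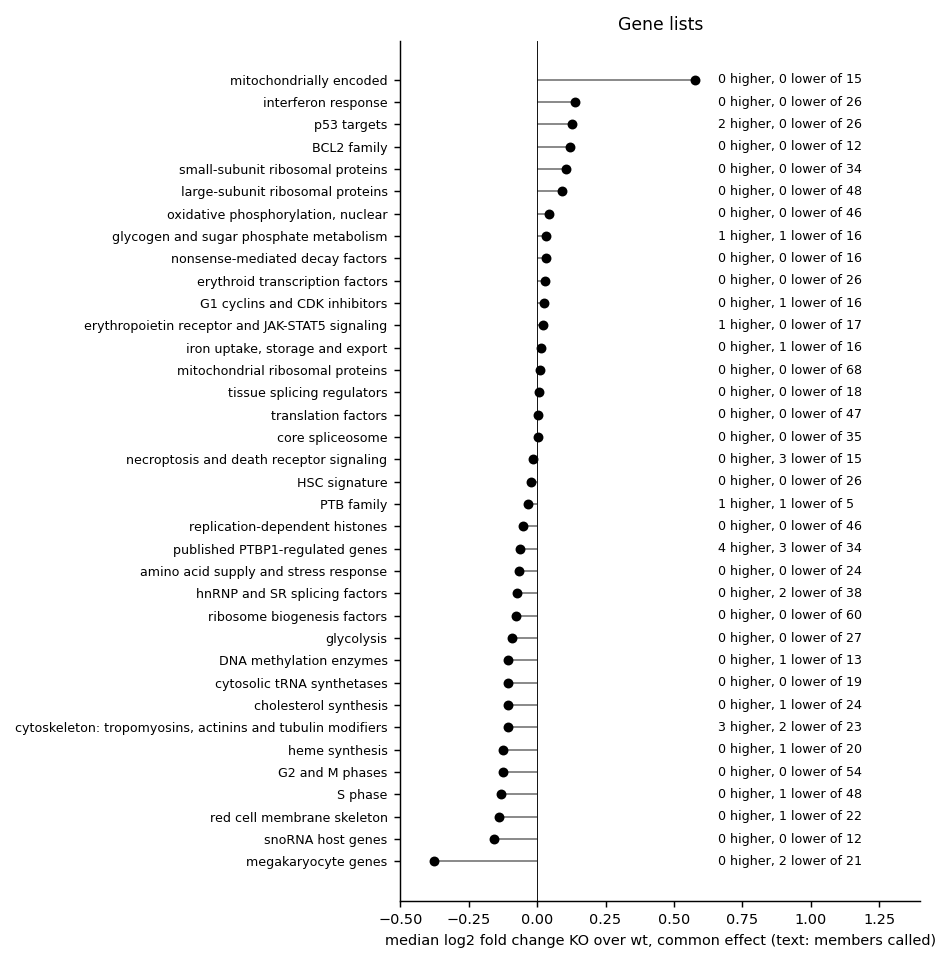
Median common log2 fold change KO over wt of each gene list (x axis, points), with the number of members called higher and lower in KO of those tested. Lists of at least 5 tested members are drawn, without markers of other cell types; most medians lie within 0.2 of 0, while mitochondrially encoded genes stand at 0.58 and megakaryocyte genes at -0.38.

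Few genes held both a called exon and a called count, but their share was not below that of all genes with a tested exon. The overlap was not tested. Of 111 genes with a called exon, 5 (4.51%) had a called count, against 2.14% of all genes with a tested exon. These were Ptbp1, Ptbp2, Rtn4, Tmem184b and Sp100. Transcript usage, tested from the transcripts' counts, was called in 79 of 7333 genes (1.08%), 50 of which also held a called exon and 4 a called count. Tmem184b (log2 0.52, adjusted p = 0.0295) and Sp100 (log2 -0.41, adjusted p = 0.0355) lost their count calls with pairs summed (0.183 and 0.123) and in 8 of 12 fits each without 1 library (up to 0.104 and 0.121). Both kept them without preMegE wt 3, preMegE KO 1 or preMegE KO 2, Tmem184b also without preCFU-E wt 3 and Sp100 also without preCFU-E KO 1.

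HSC libraries share no sample with the progenitors, so they give the same measures in other cells. In HSC alone, 5 of 20251 genes (0.0247%) were called, 1263 at an unadjusted p under 0.05, including Ptbp1, at 117, 141 and 125 CPM in HSC KO against 287, 268 and 254 CPM in HSC wt (log2 -1.08, adjusted p = 0.0432). Of the common progenitor genes tested in HSC, 65 of 99 higher genes and 93 of 125 lower genes changed in the same direction, with medians of 0.19 and -0.22. The higher genes had 17 with the same sign at an unadjusted p under 0.05 and the lower genes 26, while of all genes tested in both 3.06% were positive and 3.23% negative at that threshold. Tmem86b was called in both, at 34.8, 27.0 and 34.1 CPM in HSC KO against 7.72, 6.62 and 5.10 CPM in HSC wt.

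Ptbp2 was higher in HSC as well, at 120, 163 and 166 CPM in HSC KO against 57.4, 78.3 and 81.6 CPM in HSC wt without overlap (log2 1.05, unadjusted p = 0.000237, adjusted p = 0.466). The common progenitor effect and the HSC effect differed for 24 of 21565 genes (0.111%) in a fit of all 18 libraries, and 7 of the 234 common genes were among them, Ptbp1 and Ptbp2 included. Sex-linked transcripts differed between the sorts: Xist stood at 8340 to 11250 CPM in HSC and at 1.01 CPM or less in the progenitors, and the Y-linked Eif2s3y at 1.37 CPM or less in HSC and at 33.8 to 72.8 CPM in the progenitors. Cell type and sex therefore cannot be told apart in these differences.

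Part of the exon changes were also seen in HSC. By the mean of 3 libraries, 90 of the called exons (53.9%) changed by at least 10 points in the same direction, against 18.4% of exons not called. Of the 167 called exons, 133 (79.6%) changed in the same direction in HSC, against 52.2% of exons not called, and in 66 (39.5%) the HSC KO and wt libraries did not overlap, against 5.59% of exons not called. The first Tpm1 exon was included at 3.90%, 9.18% and 6.86% in HSC KO, against 61.0%, 75.1% and 66.6% in HSC wt. The Psap exon was included at 47.9%, 56.0% and 37.0% in HSC KO, against 18.4%, 10.7% and 0% in HSC wt. All 10 of the named exons moved the same way in HSC by the mean of 3 libraries, 9 by at least 10 points and 7 without overlap. The Lrrc61 exon was uneven, at 79.0%, 25.8% and 100% in HSC KO against 69.2%, 100% and 16.1% in HSC wt. No test was run on exons in HSC.

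**Figure D5:**
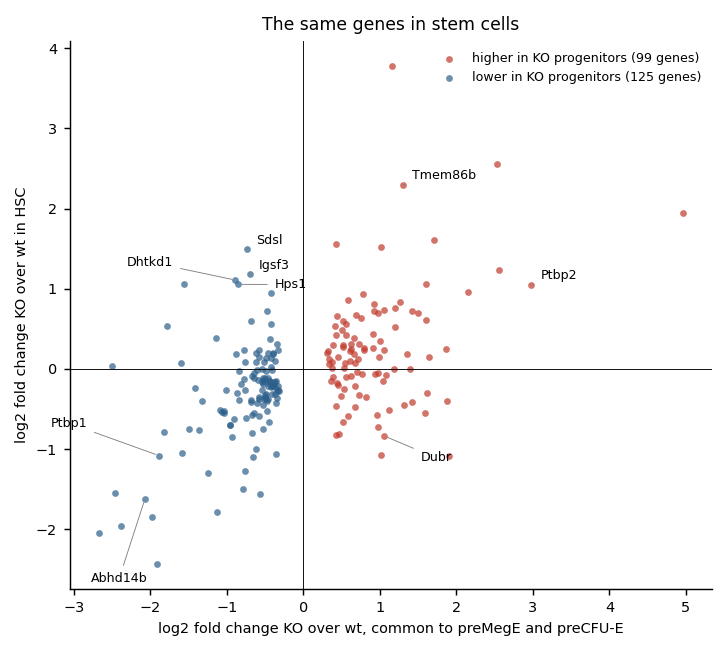
Common log2 fold change KO over wt in the progenitors (x axis) against the log2 fold change KO over wt in HSC (y axis, 3 against 3 libraries), for the 224 called genes tested in both; red genes are higher and blue genes lower in KO progenitors. Of the red genes 65 of 99 lie above 0 in HSC and of the blue genes 93 of 125 lie below, while Sdsl and Hps1 lie above 0.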

How the data were processed

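Libraries were made from total RNA of sorted cells, amplified with the Ovation RNA-Seq System V2 and built with the Ovation Ultralow System V2, per the labels' protocols; whether strand was kept is not given in the sources used here. The authors deposited estimated counts and TPM for every transcript as Salmon writes them, and per the submitters' processing notes the tool was Salmon 0.12.0, with GRCm38.p6 and mm10 given as builds. The deposited TPM were used for transcript shares and levels, and the deposited estimated counts for tests. Transcripts were matched by identifier to GENCODE M21 (136176 of 136288; unmatched ones held at most 0.0581% of a progenitor library's reads), summed per gene and rounded. Total reads limit the precision of low genes, and replicate libraries differed by more than counting noise.

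edgeR 4.0.16 (R 4.3.3) fitted quasi-likelihood models with TMM factors and filterByExpr to the 12 progenitor libraries, and Benjamini-Hochberg adjusted p below 0.05 over all genes tested was called. limma 3.58.1 tested exon inclusion on the logit scale (offset 0.01; exons at a mean level of at least 5 TPM). Alternatives used DESeq2 1.42.0, limma voom, RLE factors, length-scaled counts, no filter and left-out libraries. Scripts were tested on simulated data. The labels call replicates biological and give each group numbers 1 to 3. Same-numbered preMegE and preCFU-E libraries of a genotype correlated in their deviations from group means at r = 0.168 to 0.567 over 8206 genes. All 6 such pairs passed 0.1, so alternatives for gene counts treated them as pairs, though the labels state no pairing. The exon and usage tests were not run with these pairs. Same-numbered KO and wt libraries ranged from r = -0.134 to 0.247. Those of replicate 1 passed 0.1 as well, at 0.207 in preMegE and 0.247 in preCFU-E. The main fit takes the 12 libraries as independent.

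Members, gene lists and tests were chosen with earlier results of these data known. Named are the 15 largest rises and 15 largest falls that were called, averaged 2 or more in log2 CPM and showed KO and wt libraries apart in each population, the called members of each list, at most 4 and except 1 gene that is not reported here, and the 10 largest called exons without overlap, 1 per gene. Rtn4, Rps24, Tuba1a, Tmem184b, Sp100 and the genes that differed from HSC were named after their values were seen.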

Additional observations from a re-analysis of the deposited data

Results flagged for a closer look

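Several genes differed in the size or direction of the KO effect between cell populations. The rise of Ptbp2 was larger in preCFU-E than in preMegE, by 1.56 on the log2 scale (edgeR interaction term, adjusted p = 0.0021; every KO library above every wt library in each population), and larger in the progenitors than in HSC, by 1.95 (adjusted p = 0.000107). The fall of Ptbp1 was larger in the progenitors than in HSC, with a difference of -0.813 (adjusted p = 0.0398).

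Other genes had fitted log2 changes of opposite sign in the progenitors and in HSC, with the difference taken from the edgeR fit of all 18 libraries. Dubr had a log2 change of 1.06 in the progenitors and -0.84 in HSC, a difference of 1.90 (adjusted p = 0.0354). Hps1 had -0.85 and 1.06, a difference of -1.92 (adjusted p = 0.00418). Sdsl had -0.74 and 1.49, a difference of -2.24 (adjusted p = 0.00236). Dhtkd1 had -0.89 and 1.11, a difference of -2.0 (adjusted p = 0.0398), and Igsf3 had -0.70 and 1.18, a difference of -1.92 (adjusted p = 0.0111). In HSC alone none of these 5 passed the adjusted threshold. For the difference from HSC, voom with weights per population called 3 genes, against 24 with edgeR. Cell type and sex cannot be told apart in any of these differences. Dubr lost its common edgeR call with pairs summed (adjusted p = 0.0906). Igsf3 lost its common call without any one of preMegE wt 3, preMegE KO 1, preMegE KO 3, preCFU-E KO 1 and preCFU-E KO 2 (up to 0.0931).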

How the results depend on the processing

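The 234 common calls became 603 with no filter on low counts, 508 with DESeq2, 787 with limma voom, 119 with length-scaled counts (which also lost Hnrnpdl, Hnrnpd, Aqp1, Socs2, Gp5, Phlda3 and Phkg2, at adjusted p of 0.0516 to 0.304), 74 against a fold of 1.2 and 36 with preMegE alone. With edgeR, the replicate number as a fixed factor gave 364 genes and pairs summed 116. With limma voom, the same-numbered pair as a random effect gave 536, against 787 without it. Called exons came to 158 and usage to 73 with the replicate number as a fixed factor, which KO and wt libraries share. That factor does not model the same-numbered pair of a genotype, and no exon or usage fit did. Leaving out 1 library gave 124 to 342 calls; the fewest came without preMegE wt 2 (124), preCFU-E wt 2 (138), preCFU-E KO 2 (138) and preMegE wt 1 (147). Leaving out replicate 1, 2 or 3 of all 4 groups, chosen after seeing the data, gave 303, 42 and 92. Without mitochondrial ribosomal RNA, 252 genes were called, 37.7% of them higher against 46.2%. Fits of 1 population alone called 36 in preMegE (64 in the joint fit) and 252 in preCFU-E (78). For the difference between populations, voom called 4 genes, against 1 with edgeR. Voom with the pair as a random effect, added after seeing the data, called 30. In HSC the 18-library fit called 182 against 5, and voom called 3 genes for progenitors minus HSC against 24. A change of 20 points left 76 of 167 exons, and usage at 10% of a gene's TPM 41 of 79 genes. The cause of these shifts was not tested. The 234 genes kept their sign in every setting over both populations. The call favours this, as each setting reused the same libraries or part of them.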
